A study of Mus musculus with 9 samples.

Results

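The chromatin around 10 mouse collagen genes was followed by ATAC-seq in D2A1-d breast carcinoma cells depleted of Med4. The genes encode chains of the fibrillar collagens of types I, III, V and XI and of the microfibrillar type VI collagen: Col1a1, Col1a2, Col3a1, Col5a1, Col5a2, Col5a3, Col11a1, Col6a1, Col6a2 and Col6a3. A peak was taken as belonging to a gene when its centre lay in the gene body or within 50 kb of either end, with gene positions from RefSeq on GRCm38.p6. A peak in the windows of 2 of these genes is counted once, with the nearer gene, in the counts by gene, and in both windows in the window totals. This gave 192 of 146,734 peaks, 84 in the bodies of these genes and 108 outside them. Of the outside peaks, 19 lay in or at another protein-coding gene and 89 lay between genes. A peak near a gene is a matter of distance and not a measured link to that gene.

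Fibrillar collagens are made as procollagen chains that wind into a triple helix, are trimmed by proteinases outside the cell and assemble into the fibrils that give tissue its tensile strength. Col1a1 and Col1a2 give the main fibril collagen, Col3a1 gives the thinner fibrils found beside it, and the type V and XI chains nucleate fibrils and limit their width. Type VI collagen, built from the chains of Col6a1, Col6a2 and Col6a3, forms beaded microfilaments that connect fibrils with cells. In breast tissue these chains come mainly from fibroblasts, and carcinoma cells with mesenchymal features can make them too.

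The cells carried shMed4 #1, shMed4 #4 or a non-targeting control (NTC) and each group had 3 libraries. All 3 groups are the same cell line transduced with a hairpin, labelled Med4 knockdown for the shMed4 groups and WT for NTC, and none was treated further. Med4 is a subunit of Mediator, the complex that carries signals from transcription factors to RNA polymerase II, and the study's title ties it to metastatic dormancy. The libraries are titled as biological replicates. No source used here says if each came from its own transduction, so the p-values cover only how these libraries spread. The files hold no RNA, so the degree of Med4 depletion could not be checked and accessibility is not a measure of collagen transcript or protein. These are bulk samples, in which a change in every cell and a change in the share of cells with an open site cannot be told apart.

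Values are normalised reads in peaks of 501 bp, so levels can be compared between peaks. Libraries held 44.8 to 98.9 M reads in peaks, and the median peak held 110 to 247 reads. Of 6 epithelial markers, Krt18 was the only one with a peak within 1 kb of its start or gene end, and Krt8, Epcam, Cdh1, Cldn7 and Esrp1 had none there. The Krt18 peak held 347 to 510 normalised reads in the shMed4 libraries and 160 to 170 in the NTC libraries. Of 6 fibroblast or other mesenchymal markers, Vim, Thy1 and Pdgfrb had such a peak and Pdgfra, Dcn and Lum did not, and the summed level was 4072 to 4487 in the shMed4 libraries and 5227 to 5574 in the NTC libraries. Vim, which makes up most of that sum, and Pdgfrb were lower (log2 folds −0.43 and −0.27 over both hairpins), whereas Thy1 was higher (1.03). The leukocyte markers Ptprc, Cd3e and Itgam had no such peak. Of 4 endothelial markers Cdh5 alone had one (268 to 472 in the shMed4 libraries against 231 to 250 in NTC) and Pecam1, Kdr and Tek had none. The part of these markers in the collagen results was not tested.

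The promoters came first, because a gene's start is the site where accessibility is most directly tied to it. Of the 10 genes, 5 had a peak with its centre within 1 kb of the annotated start (for Col1a1, whose strand was not in the table used, of either gene end). The sequences of 4 of these starts follow, as the 200 bases before the annotated gene on its own strand, taken from RefSeq on GRCm38.p6. Capitals mark matches, on either strand, to any of 5 motifs. These were the TATA box TATAAA, the CCAAT box, the GC box GGGCGG, the AP-1 type site TGANTCA and the TEAD type site GGAATG. No match overlapped another in the printed sequences.
Col5a1 chr2:27886181-27886380 (+): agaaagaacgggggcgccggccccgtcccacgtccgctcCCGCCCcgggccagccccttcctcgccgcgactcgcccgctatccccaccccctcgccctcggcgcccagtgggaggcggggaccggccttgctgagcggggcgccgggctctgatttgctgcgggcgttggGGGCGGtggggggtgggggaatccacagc
Col5a3 chr9:20815118-20815317 (-): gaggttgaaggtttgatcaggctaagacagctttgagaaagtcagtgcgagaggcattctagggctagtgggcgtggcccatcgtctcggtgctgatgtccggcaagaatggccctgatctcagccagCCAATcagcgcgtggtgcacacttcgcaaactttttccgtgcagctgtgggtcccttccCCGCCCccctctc
Col6a1 chr10:76726045-76726244 (-): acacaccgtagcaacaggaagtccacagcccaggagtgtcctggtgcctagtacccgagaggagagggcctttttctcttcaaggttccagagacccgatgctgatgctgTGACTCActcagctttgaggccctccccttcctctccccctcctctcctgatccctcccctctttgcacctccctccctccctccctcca
Col6a2 chr10:76623631-76623830 (-): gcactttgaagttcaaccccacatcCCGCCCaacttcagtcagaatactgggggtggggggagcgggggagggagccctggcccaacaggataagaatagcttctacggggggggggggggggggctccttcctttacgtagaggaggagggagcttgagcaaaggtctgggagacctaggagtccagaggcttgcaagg

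The 4 stretches are rich in G and C, at 77% for Col5a1, 58% for Col5a3, 59.5% for Col6a1 and 61% for Col6a2, against a median of 53% over 32,851 promoters. A GC box was found in the stretches of Col5a1, Col5a3 and Col6a2 and in 31.0% of all promoters of the same length. The CCAAT box of Col5a3 was found in 29.3% of promoters and the AP-1 type match of Col6a1 in 5.48%. TATAAA was found in 9.96% of all promoters and GGAATG in 10.1%, and neither occurred in these 4 stretches. The start peaks covered all 200 bases for Col5a3 and Col6a1, 124 for Col6a2 and 4 for Col5a1, whose peak lies mostly further upstream.

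The start peaks of the type V genes Col5a1 and Col5a3 were lower over both hairpins and those of the type VI genes Col6a1 and Col6a2 were higher, each by less than 1.5-fold. Over all 12,122 genes with a start or gene-end peak 45.7% were lower and 9.98% higher, with a median log2 fold of −0.11, so a lower start peak was common. In NTC the order of the mean levels was Col5a1 (1715), Col1a1 (1398), Col5a3 (1004), Col6a2 (469) and Col6a1 (374), and the NTC libraries of no neighbours in this order overlapped. The Col5a1 start peak (chr2:27885683-27886184, centre 0.492 kb before the start) held 1382, 1381 and 1417 normalised reads with shMed4 #1 and 1467, 1462 and 1623 with shMed4 #4, against 1752, 1716 and 1676 in NTC. All 6 shMed4 libraries lay below all 3 NTC libraries, at a log2 fold of −0.24 over both hairpins (SE 0.05, limma, adjusted p = 4.1e-05). Chromosome 2 as a whole was lower by the same amount: its median peak outside these collagens stood at −0.24, and with the median of the surrounding 10 Mb subtracted the Col5a1 start peak stood at 0.00 and was not called.

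The Col5a3 start peak (chr9:20814839-20815340) held 807, 854 and 848 normalised reads with shMed4 #1 and 830, 949 and 896 with shMed4 #4, against 1022, 1009 and 982 in NTC. The groups did not overlap, and the log2 fold was −0.22 (SE 0.05, adjusted p = 0.00066). Peaks on chromosome 9 had a median of 0.06, over all its peaks and not its start peaks alone. Over the start or gene-end peaks of all genes the median was −0.11. Whether start peaks on chromosome 9 moved with that of Col5a3 was not tested. The Col5a3 start peak was −0.11 and not called with libraries scaled on gene-end peaks.

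The Col6a2 start peak (chr10:76623253-76623754) held 527, 527 and 537 normalised reads with shMed4 #1 and 599, 720 and 711 with shMed4 #4, against 471, 471 and 465 in NTC. Every shMed4 library lay above every NTC library, and the log2 fold was 0.35 (SE 0.06, adjusted p = 1.4e-05), 0.18 with #1 and 0.52 with #4. The Col6a1 start peak (chr10:76725864-76726365) held 387, 382 and 394 normalised reads with shMed4 #1 and 444, 550 and 487 with shMed4 #4, against 367, 309 and 445 in NTC. NTC and the hairpins overlapped here. The log2 fold was 0.24 over both hairpins (SE 0.08, adjusted p = 0.014), 0.41 with #4 and 0.07 with #1, which was not called. Without NTC replicate 2 the value over both hairpins was 0.11 and was not called, without NTC replicate 3 it was 0.37, and it was not called by DESeq2 on recovered reads (0.22). At both type VI starts shMed4 #4 exceeded shMed4 #1, by 0.35 for Col6a2 (adjusted p = 0.00021) and by 0.34 for Col6a1 (adjusted p = 0.0038).

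The Col1a1 gene-end peak (chr11:94936848-94937349) held 1326, 1374 and 1314 normalised reads with shMed4 #1 and 1392, 1480 and 1580 with shMed4 #4, against 1314, 1390 and 1489 in NTC. The groups overlapped and neither hairpin was called against NTC (0.01 over both, SE 0.05, adjusted p = 0.85). Of the other genes, Col1a2, Col3a1 and Col6a3 had their nearest peak 1.89, 2.63 and 3.58 kb from the start, Col5a2 had no peak within 1 kb of either end, and Col11a1 had no peak at all in its window.

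**Figure D1:**
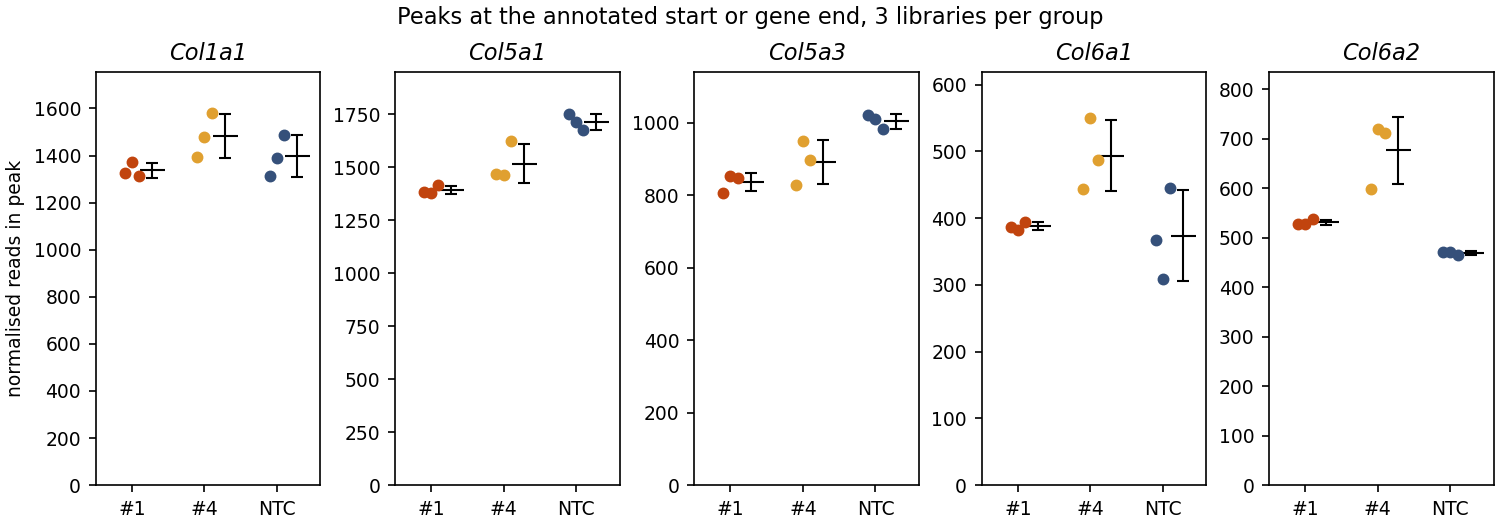
Normalised reads in the start peak of Col5a1, Col5a3, Col6a1 and Col6a2 and the gene-end peak of Col1a1, for shMed4 #1, shMed4 #4 and NTC, 1 point per library, with the mean and SD (n = 3) beside the points. The Col5a1 and Col5a3 points of both hairpins lie below NTC, the Col6a2 points lie above it, and those of Col1a1 and Col6a1 overlap.

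Over all 192 peaks, more were lower than higher after Med4 depletion, and most of the lower ones belonged to Col5a1. Against NTC, 40 peaks were higher (20.8%, beside 27.9% of all 146,729 peaks tested) and 73 were lower (38.0%, beside 26.2%). The median log2 fold was −0.09, against −0.02 over all peaks. Scaling the libraries on gene-end peaks instead moved the median of all peaks to 0.09 and gave 60 higher and 62 lower. Under that scaling 52,137 of all 146,729 peaks were higher and 22,183 lower, so the balance shifted in all peaks too and depends on the scaling. With the median of the surrounding 10 Mb subtracted 45 of the 192 were higher and 59 lower, beside 39,313 and 34,869 of all peaks.

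Col5a1 held 66 of the 192 peaks and 50 of the 73 called lower. Of the 126 peaks of the other 8 genes, 35 (27.8%) were higher and 23 (18.3%) lower around a median of 0.04, a split taken after the values of Col5a1 had been seen. Inside the gene bodies other than Col5a1, 13 of 32 peaks were higher and 2 were lower. These are 40.6% and 6.25%, beside 27.9% and 26.2% of all peaks. With shMed4 #1 18 of the 32 were higher and 3 lower (median log2 fold 0.24). With shMed4 #4 10 were higher and 3 lower (median −0.01), so this rested more on shMed4 #1. Of all 192 peaks, 43 were higher and 77 lower with shMed4 #1 alone (all peaks, 27.9% and 24.9%). With shMed4 #4 alone 33 were higher and 73 lower (all peaks, 26.2% and 24.3%). Both of these comparisons use the same NTC libraries. Called with each hairpin were 19 peaks higher and 57 lower, against 17.6% and 13.5% of all peaks, and 6 were called in opposite directions (3.17% of all peaks).

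**Figure D2:**
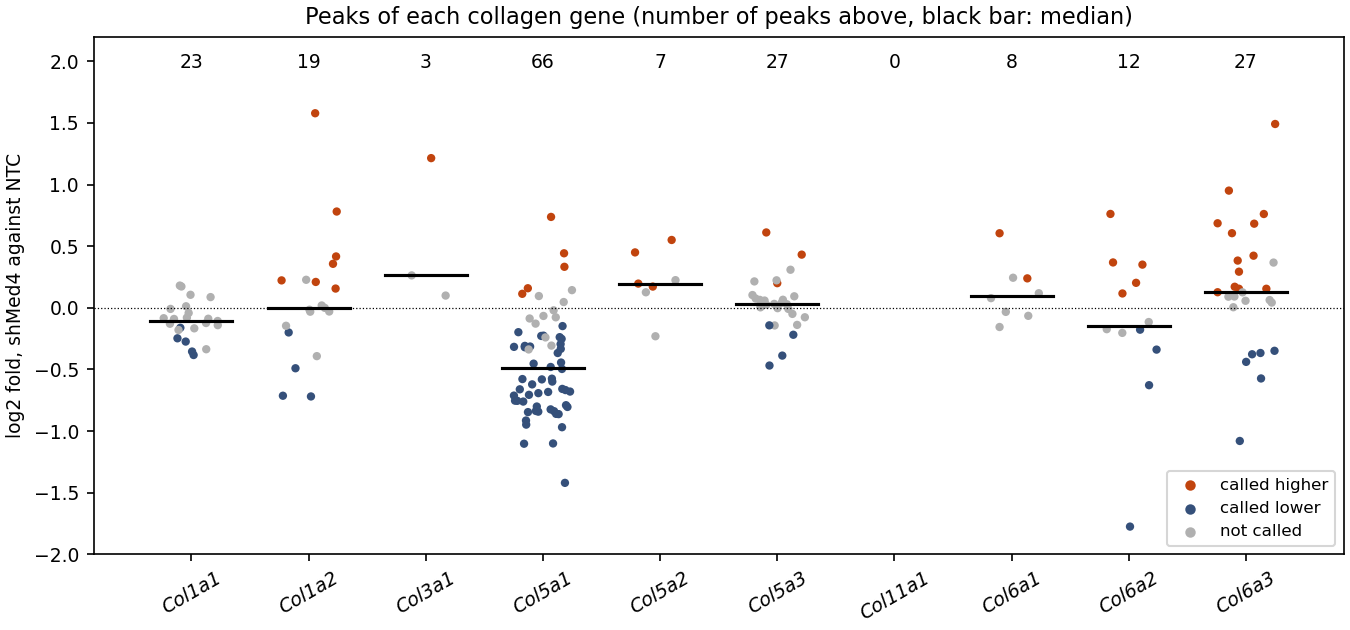
Log2 fold of each peak over both hairpins against NTC, by collagen gene, coloured by whether limma called it higher, lower or neither, with the number of peaks above each gene and a bar at the median. Col5a1 has 66 peaks with a median near −0.49, and the medians of the other genes lie between −0.14 and 0.26.

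Type I collagen had few changed peaks near Col1a1 and changes in both directions near Col1a2. None of the 23 Col1a1 peaks was higher over both hairpins and 5 were lower, with folds from −0.38 to 0.18. The strongest of them in NTC, 5.15 kb beyond the gene (chr11:94957946-94958447), was also the lowest in fold. It held 3078, 2967 and 3142 normalised reads with shMed4 #1 and 2159, 2201 and 2372 with shMed4 #4, against 3502, 3315 and 3439 in NTC. The 3 groups did not overlap, and the log2 fold was −0.16 with #1 and −0.61 with #4 (−0.38 over both, SE 0.04, adjusted p = 7.1e-10). The 4 peaks in the Col1a1 body were not called with either hairpin. Peaks in the 10 Mb around Col1a1 had a median of −0.14, and after its subtraction 3 Col1a1 peaks were higher and 3 lower.

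Col1a2 had 7 higher and 4 lower peaks of 19. The largest rise was inside the gene, 19.8 kb from the start (chr6:4525182-4525683), with 114, 91.7 and 82.5 normalised reads with shMed4 #1 and 113, 95.9 and 106 with shMed4 #4, against 27.4, 40.0 and 31.9 in NTC. This weak site in NTC stood 2.99-fold higher over both hairpins (log2 fold 1.58, SE 0.18, adjusted p = 1.1e-09), and to a like degree with each (1.51 and 1.65). The largest fall was 16.1 kb before the gene (chr6:4489252-4489753), at 311, 324 and 245 with shMed4 #1 and 331, 371 and 323 with shMed4 #4, against 429, 570 and 574 in NTC (log2 fold −0.72, SE 0.09, adjusted p = 1.0e-08). The groups did not overlap at either site. The neighbour of that falling peak, 17.1 kb before the gene and the highest of the window, did not move with it: it averaged 1822 ± 36.2, 1782 ± 41.1 and 1778 ± 34.1 in shMed4 #1, shMed4 #4 and NTC (SD, n = 3 each, log2 fold 0.02, adjusted p = 0.73).

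In the Col1a2 body 4 of 5 peaks were higher, among them the one nearest the start (log2 fold 0.21) and those 25.5 kb and 33.6 kb into the gene (0.36 and 0.22). The region of Col1a2 was itself raised, with a median of 0.17 over 10 Mb, and with that subtracted the Col1a2 split turned to 4 higher and 9 lower. The rise of 1.58 at 19.8 kb was far larger than that shift.

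Col3a1, which encodes the single chain of type III collagen, had only 3 peaks, against a median of 14 per gene window. All 3 were weak in NTC, at 31.5 to 129 normalised reads. The peak 41.9 kb before the gene (chr1:45269347-45269848) held 69.6, 70.6 and 68.2 with shMed4 #1 and 92.6, 56.3 and 67.0 with shMed4 #4, against 32.3, 44.2 and 18.0 in NTC. It was 2.32-fold higher over both hairpins (log2 fold 1.21, SE 0.23, adjusted p = 2.1e-05) and the groups did not overlap, although the counts are small. The strongest, 6.43 kb after the gene and also in the Col5a2 window, averaged 162 ± 14.1, 120 ± 27.1 and 129 ± 15.0 in shMed4 #1, shMed4 #4 and NTC and was not called (0.10, adjusted p = 0.54). The peak inside the gene was called with shMed4 #1 (0.48) and not with shMed4 #4 (0.05).

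Type V collagen held most of the called peaks, at Col5a1, whose chain is the common component of type V fibrils. The Col5a1 body spans 153 kb and held 52 peaks, or 3.40 per 10 kb, against a median of 1.18 over the 633 genes with at least 20 body peaks. Lower after Med4 depletion were 43 of the 52, or 82.7%, with a median log2 fold of −0.66. Among those 633 genes the median share was 21.7%, and 3 genes, Col5a1 included, reached 82.7%. Chromosome 2 was itself lower. Of its peaks outside these collagens with NTC means of 152 to 499 normalised reads, 55.6% were lower and 16.4% higher (median log2 fold −0.26). That range is the one of the run of 20 peaks described below. It is not matched to all 52 body peaks, some of which are stronger. Higher were 3 of the 52 body peaks. With the median of the surrounding 10 Mb subtracted, 11 of all 66 Col5a1 peaks were higher and 34 lower over both hairpins. With shMed4 #1 alone 15 were then higher and 38 lower, and with shMed4 #4 alone 9 and 25.

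The lower peaks gathered in the downstream stretch of the gene. Beyond the midpoint of the body 32 of 35 peaks were lower and 1 was higher, with a median of −0.71. Before the midpoint 11 of 17 were lower and 2 higher, with a median of −0.29, where the chromosome stood at −0.24. The longest unbroken run, picked out after the values were seen, held 20 neighbouring peaks over 45.6 kb (chr2:27959233-28004814), from 73.1 to 118 kb after the start. These were weak sites, with NTC means of 152 to 499 normalised reads and a median of 235, against medians of 125 with shMed4 #1 and 172 with shMed4 #4. From the end of each peak to the start of the next was a median of 901 bp.

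Summed over the run, the libraries held 2744, 2633 and 2582 normalised reads with shMed4 #1 and 3777, 3616 and 3547 with shMed4 #4, against 5375, 5085 and 4894 in NTC. The 3 groups were fully apart, in the order shMed4 #1, shMed4 #4, NTC. Single peaks of the run had log2 folds from −1.10 to −0.33 with a median of −0.72, and in 19 of 20 every shMed4 library lay below every NTC library. All 20 were called with shMed4 #1 (median −0.98) and 17 with shMed4 #4 (median −0.50), and 14 were higher with shMed4 #4 than with shMed4 #1. With the regional median subtracted 18 of the 20 stayed lower over both hairpins, at a median of −0.48. With shMed4 #1 alone 19 were then lower (median −0.69), and with shMed4 #4 alone 11 were (median −0.31). Since the run was picked by its calls, these values describe it and test nothing.

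Not every peak of the downstream stretch fell. Beyond the run, the peak 148 kb after the start averaged 1517 with shMed4 #1 and 1360 with shMed4 #4, against 1140 in NTC (log2 fold 0.33, called higher), and that at 146 kb averaged 477 and 463, against 439 (0.10, not called). Outside the run, the largest fall of Col5a1 was an intragenic peak 26.6 kb after the start (chr2:27912729-27913230), with 191, 193 and 210 normalised reads with shMed4 #1 and 183, 160 and 206 with shMed4 #4, against 506, 479 and 547 in NTC. All shMed4 libraries lay well below NTC, at 0.37-fold over both hairpins (log2 fold −1.42, SE 0.09, adjusted p = 2.0e-16), and here the hairpins did not differ beyond their spread (#4 against #1, −0.12, adjusted p = 0.36). The peak 53.2 kb after the start was next among the larger sites, at 776 and 625 with the hairpins, against 1342 in NTC (log2 fold −0.95).

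The strongest Col5a1 peak lay 27.6 kb before the gene (chr2:27858515-27859016), with 2976, 2869 and 2949 normalised reads with shMed4 #1 and 3060, 3445 and 3773 with shMed4 #4, against 4013, 4153 and 4073 in NTC. The groups did not overlap (log2 fold −0.37, SE 0.05, adjusted p = 1.6e-08), and shMed4 #1 was lower than shMed4 #4. The largest rise was 63.3 kb into the gene (chr2:27949490-27949991), just before the run, with 92.8, 80.3 and 119 with shMed4 #1 and 117, 120 and 97.0 with shMed4 #4, against 42.0, 71.9 and 76.9 in NTC. It was 1.67-fold higher (log2 fold 0.74, SE 0.17, adjusted p = 0.00048) and is the weakest peak of the gene in NTC. Without NTC replicate 1, the lowest of the 3, the log2 fold was 0.47.

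**Figure D3:**
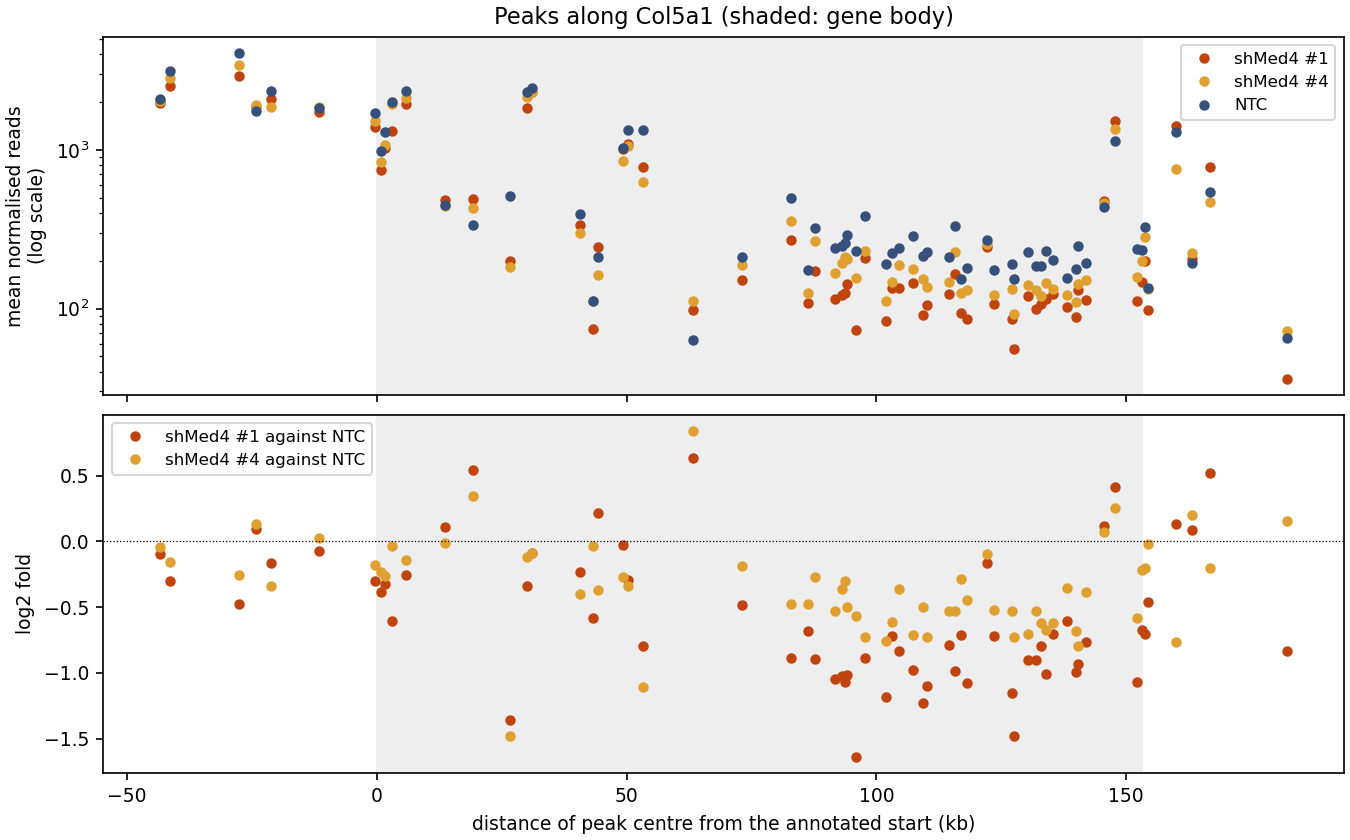
Peaks along Col5a1 by the distance of the peak centre from the annotated start in kb, with the gene body shaded. The upper panel gives the mean of 3 libraries for shMed4 #1, shMed4 #4 and NTC on a log axis and the lower panel the log2 fold of each hairpin against NTC, in which the weak peaks from 73.1 to 118 kb lie below 0 with both hairpins and lower with shMed4 #1.

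Col5a2, whose chain joins that of Col5a1 in the common form of type V collagen, moved the other way. Of the 7 peaks counted with it 4 were higher and none was lower over both hairpins. This rested more on shMed4 #1, with 6 higher (median log2 fold 0.27), than on shMed4 #4, with 2 higher (median −0.02). The largest rise was inside the gene (chr1:45494997-45495498), with 390, 425 and 407 normalised reads with shMed4 #1 and 312, 283 and 288 with shMed4 #4, against 233, 224 and 251 in NTC. The 3 groups did not overlap, and the log2 fold was 0.78 with #1 and 0.32 with #4 (0.55 over both, SE 0.08, adjusted p = 1.9e-07). The strongest peak, 24.4 kb from the nearer gene end (chr1:45527388-45527889), averaged 1016 ± 30.2 and 959 ± 44.5 with the hairpins and 863 ± 75.3 in NTC (log2 fold 0.20, adjusted p = 0.0028), and without NTC replicate 1 it was 0.13 and not called. A further body peak was called with shMed4 #1 only, at 128 against 61.0 in NTC (log2 fold 1.07), while shMed4 #4 averaged 56.1, and it was higher with #1 than with #4 by the direct test.

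Col5a3, a chain of a rarer type V form, had few called peaks, 3 higher and 4 lower of 27. Its largest fall among peaks called with both hairpins was the start peak described above. The largest rise was 20.7 kb into the gene (chr9:20794137-20794638), with 125, 131 and 125 normalised reads with shMed4 #1 and 147, 165 and 143 with shMed4 #4, against 102, 72.9 and 99.8 in NTC. The groups did not overlap (log2 fold 0.61, SE 0.13, adjusted p = 0.00015). The strongest peak of the window, which lies in the body of the neighbouring gene Rdh8, averaged 2792 ± 61.9, 2764 ± 114 and 2874 ± 3.86 in shMed4 #1, shMed4 #4 and NTC and was not called (−0.05, adjusted p = 0.31). Of the Col5a3 peaks, 9 lay in or at another gene.

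Col11a1, the type XI chain nearest to Col5a1 in its make-up, had no peak in its 190 kb body or within 50 kb of it. The nearest peaks lay 70.2 kb before the body and 196 kb after it. No statement on its accessibility can be made beyond this.

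Type VI collagen showed higher signal close to the starts of Col6a2 and Col6a3 and a marked fall at a distant site, while the change at the Col6a1 start was small and not called with shMed4 #1. Col6a1 and Col6a2 are neighbours on the same strand of chromosome 10. At Col6a2, the peak 1.46 kb before the gene (chr10:76624837-76625338) was raised more than the start peak, with 593, 505 and 547 normalised reads with shMed4 #1 and 440, 476 and 489 with shMed4 #4, against 284, 334 and 279 in NTC. The groups did not overlap, and the site was 1.70-fold higher (log2 fold 0.76, SE 0.07, adjusted p = 2.5e-11). The order of the hairpins was the reverse of that at the start, with shMed4 #1 above shMed4 #4 (−0.23 for #4 against #1, adjusted p = 0.028).

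The peak 41.4 kb before Col6a2 and also in the Col6a1 window (chr10:76664758-76665259) had the largest fall of the 192. It held 194, 195 and 184 normalised reads with shMed4 #1 and 454, 448 and 469 with shMed4 #4, against 1074, 990 and 983 in NTC. The groups were fully apart, at 0.19-fold with #1 and 0.45-fold with #4 (log2 folds −2.40 and −1.15, SE 0.08 each, adjusted p = 3.6e-25 and 1.3e-15), and shMed4 #4 stood 2.38-fold above shMed4 #1 (adjusted p = 5.9e-16). No other protein-coding gene of the table covered this peak. The next peaks toward each gene, 29.8 kb before Col6a2 and 39.6 kb after Col6a1, had log2 folds of −0.18 and −0.07, the second not called.

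The strongest Col6a2 peak, 25.3 kb before the gene (chr10:76648649-76649150), parted the hairpins. It held 1448, 1515 and 1579 normalised reads with shMed4 #1 and 866, 940 and 928 with shMed4 #4, against 1475, 1537 and 1446 in NTC. Only shMed4 #4 lay below NTC (log2 fold −0.71, SE 0.06, adjusted p = 2.8e-13), whereas shMed4 #1 was at 0.03 (adjusted p = 0.71), and the hairpins differed by −0.73 (adjusted p = 3.2e-13). In all, Col6a2 had 5 higher and 4 lower of the 12 peaks counted with it. Of the 8 peaks counted with Col6a1, none of them in its body, 2 were higher and none lower, and the peak with the largest fall, which is counted with Col6a2, is a further one of its window. The strongest Col6a1 peak, 4.62 kb before the gene, averaged 1242 ± 73.7 and 1160 ± 109 with the hairpins and 1135 ± 42.3 in NTC (0.08, adjusted p = 0.22). Over the 10 Mb around them the median was −0.14. With it subtracted Col6a1 had 5 higher and none lower, and Col6a2 5 higher and 3 lower.

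Col6a3, which encodes the longest of the 3 type VI chains, had 13 higher and 6 lower peaks of 27. Within 10 kb of its start, raised and uncalled sites lay side by side. The peak 4.33 kb after the start (chr1:90839393-90839894) had the largest rise, with 411, 381 and 412 normalised reads with shMed4 #1 and 473, 467 and 427 with shMed4 #4, against 144, 158 and 151 in NTC. The groups were far apart, at 2.81-fold over both hairpins (log2 fold 1.49, SE 0.08, adjusted p = 1.2e-18). Its neighbours at 3.58 and 6.21 kb were higher too (log2 folds 0.61 and 0.69), whereas that at 5.16 kb was not called (0.09). The strongest peak of all 192 in NTC, 8.98 kb after the start (chr1:90834742-90835243), averaged 4907 ± 148 and 4699 ± 279 with the hairpins and 4595 ± 124 in NTC, and was not called (0.06, SE 0.04, adjusted p = 0.19).

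Distant Col6a3 peaks differed between the hairpins. The largest fall, 42.8 kb after the gene (chr1:90723772-90724273), held 60.0, 64.9 and 48.4 normalised reads with shMed4 #1 and 97.7, 161 and 116 with shMed4 #4, against 177, 167 and 192 in NTC. Both hairpins lay below NTC (log2 fold −1.08 over both, SE 0.15, adjusted p = 9.4e-08), and shMed4 #4 was 2.12-fold above shMed4 #1 (adjusted p = 2.6e-06). The peak 13.9 kb before the gene, named for its difference between the hairpins after values were seen, averaged 324 with shMed4 #1 and 722 with shMed4 #4, against 286 in NTC, a log2 fold of 1.34 with #4 and of 0.19 with #1, which was not called.

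**Figure D4:**
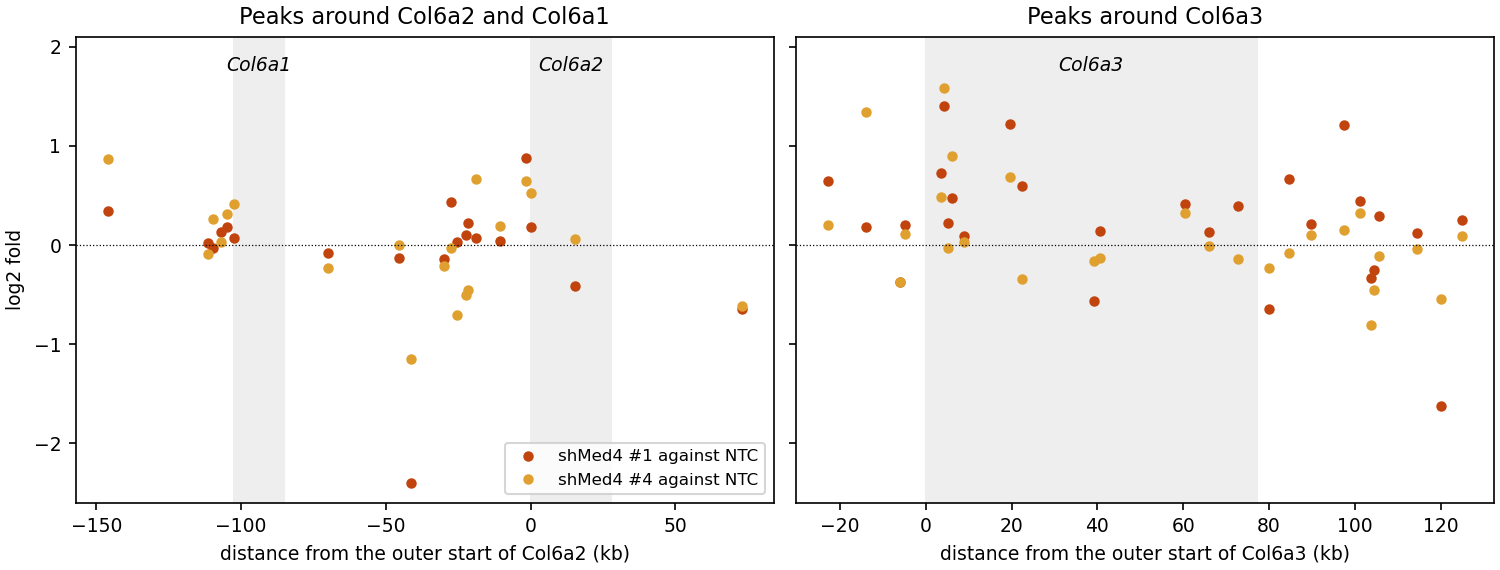
Log2 fold of each peak with shMed4 #1 and with shMed4 #4 against NTC, by distance in kb along the Col6a2 and Col6a1 neighbourhood (left) and Col6a3 (right), with gene bodies shaded. The peak 41.4 kb before Col6a2 stands alone at −2.40 and −1.15, and the peaks just inside Col6a3 reach 1.40 and 1.58.

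Summed over each window, the totals moved by less than the single peaks did. Over both hairpins 4 of the 9 windows with peaks were higher and 4 were lower, beside 31.3% and 37.3% of the 19,537 gene windows tested. With shMed4 #1 alone 4 were higher and 3 lower (all windows, 32.8% each way), and with shMed4 #4 alone 1 was higher and 4 were lower (all windows, 27.9% and 38.2%). With shMed4 #4 against shMed4 #1, 2 were higher and 4 lower (all windows, 22.8% and 32.3%). Higher were Col3a1 (log2 fold 0.34), Col5a2 (0.22), Col6a3 (0.12) and Col1a2 (0.07). Lower were Col5a1 (−0.26), Col6a1 (−0.16), Col1a1 (−0.13) and Col6a2 (−0.10), and Col5a3 (0.01) was not called.

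The Col5a1 total was 37912, 36930 and 38236 normalised reads with shMed4 #1 and 38675, 39852 and 40658 with shMed4 #4, against 47608, 46152 and 45597 in NTC, without overlap (SE 0.03, adjusted p = 4.1e-08). The Col3a1 total was 371, 359 and 404 with shMed4 #1 and 343, 256 and 303 with shMed4 #4, against 279, 298 and 222 in NTC. The rise of Col3a1 was clear with shMed4 #1 alone (0.51, adjusted p = 0.00057), and shMed4 #4 overlapped NTC (0.18, adjusted p = 0.18). Without NTC replicate 3 the Col3a1 value over both hairpins was 0.22 and was not called, and without NTC replicate 1 the Col1a2 value was 0.05 and was not called.

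The totals of the Col6a1 and Col6a2 windows rested on the shared peak 41.4 kb before Col6a2. Without it the Col6a1 means were 4079 and 4268 with shMed4 #1 and shMed4 #4, against 4000 in NTC, and those of Col6a2 were 7735 and 6924, against 7195 in NTC. Within 10 kb of the genes the Col6a2 total was higher (0.47) and that of Col6a1 was 0.10. Centred on gene-end peaks, Col5a1 was the single window called lower.

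Col3a1 had the largest absolute fold of the windows. The 3 genes outside these windows whose totals ran most like it over the 9 libraries were Amph, Clrn1 and Smlr1, with root mean square log2 differences of 0.08, 0.12 and 0.12 and with 3, 8 and 6 peaks.

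**Figure D5:**
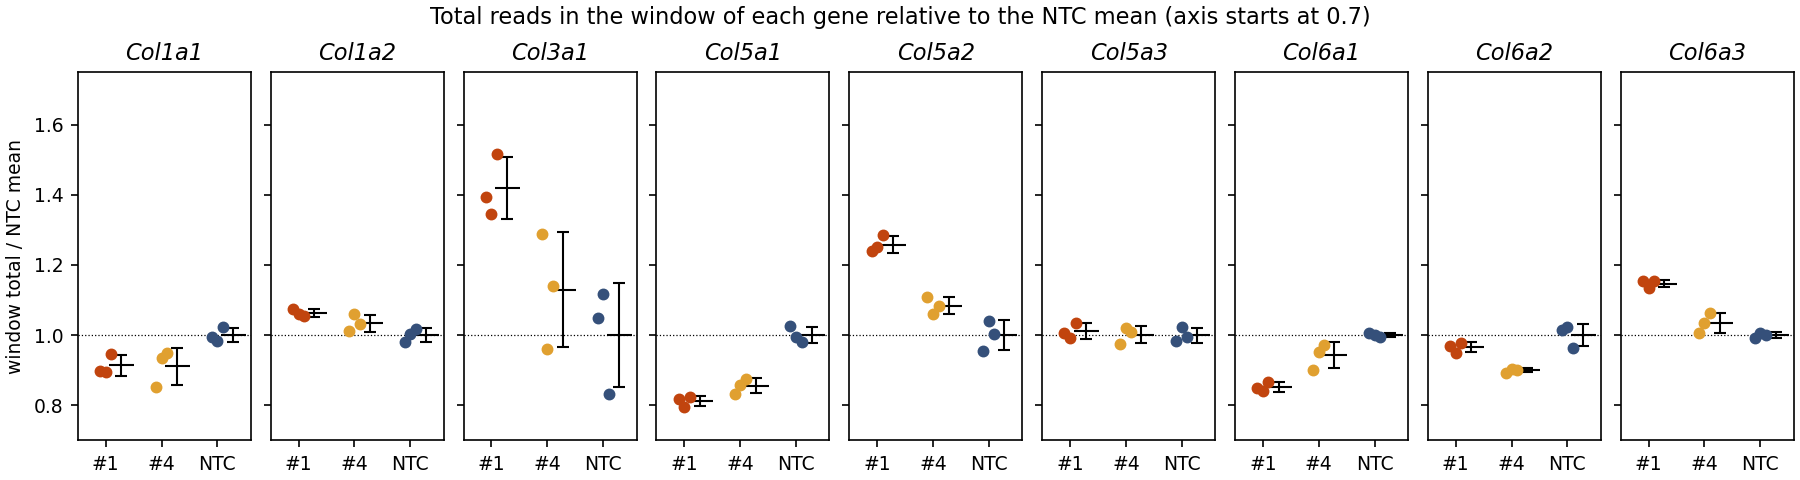
Total normalised reads in the window of each gene divided by its NTC mean, 1 point per library, with the mean and SD (n = 3) for shMed4 #1, shMed4 #4 and NTC. The axis starts at 0.7, Col5a1 lies below 1 with both hairpins, and Col3a1, Col5a2 and Col6a3 lie highest with shMed4 #1.

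The hairpins differed from each other at many of these peaks. With shMed4 #4 against shMed4 #1, 54 of the 192 were higher and 45 lower, beside 20.4% and 21.2% of all peaks. Of the Col5a1 peaks 30 were higher and 8 lower with #4, so the fall there was smaller with #4 than with #1. Col6a3 ran the other way, with 5 higher and 14 lower, and of its 27 peaks 17 were higher than NTC with shMed4 #1 and 6 with shMed4 #4. All 4 of the Col5a2 peaks that differed were lower with #4. The surrounding 10 Mb moved too, with medians for #4 against #1 of 0.10 around Col5a1, −0.15 around Col5a2 and −0.08 around Col6a3.

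Genes that serve collagen making and binding were read at their own start or gene-end peak, to be read against the 9.98% higher and 45.7% lower of all genes with such a peak. Of 27 genes for procollagen folding, modification, export and trimming, 18 had such a peak. Of these, 3 were higher and 6 lower around a median of −0.09. The largest change was at Fkbp10, which encodes a collagen chaperone of the endoplasmic reticulum. Its peak held 352, 351 and 376 normalised reads with shMed4 #1 and 417, 417 and 379 with shMed4 #4, against 43.6, 78.0 and 68.7 in NTC.

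Fkbp10 was thus 6.10-fold higher without overlap (log2 fold 2.61, SE 0.12, adjusted p = 1.2e-20). Serpinh1, the gene of the procollagen chaperone HSP47, was higher by less (0.22, adjusted p = 8.9e-05), while Pcolce, the enhancer of C-propeptide removal, was lower (−0.29, adjusted p = 7.4e-05). The gene-end peaks of Bmp1, P3h1 and Plod3 were also the ones read for another gene. Only the strongest gene-end peak of each gene was compared, so other peaks at the ends of neighbouring genes could be missed. P4hb, P4ha3, P3h2, Adamts2, Adamts3, Adamts14, Tll1 and Tll2 had no gene-end peak here, and Ctage5 was not in the gene table.

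Of 7 other fibrillar and type VI chains 4 had a gene-end peak, 1 was higher and 2 were lower. Col27a1 fell by 0.78 on the log2 scale (adjusted p = 2.9e-13), Col11a2 fell by 0.34 (not called with shMed4 #4 alone) and Col2a1, the cartilage fibril chain, rose by 0.42. Of 14 fibril-associated collagens and partners 5 had one, with Col14a1 higher from a low level (1.03, adjusted p = 1.2e-06), Sparc lower (−0.14, not called with shMed4 #1 alone) and Col16a1 not called (−0.11). Of 12 collagen receptors 6 had one. The integrin gene Itga2 was higher (0.52, adjusted p = 4.6e-06), and Antxr2 was higher over both hairpins (0.13) and not called with shMed4 #4 alone. Itga1 was lower with shMed4 #4 (−0.48) and not called with shMed4 #1 (0.02), and the hairpins differed there (−0.50 for #4 against #1, adjusted p = 1.6e-10).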

How the data were processed

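ATAC-seq was done on 9 libraries, 3 each of shMed4 #1, shMed4 #4 and NTC. The deposited values are signal, made by the authors from reads per peak by a size factor for each library, with DESeq2 going by the file's name. Per the submitters' processing notes the tools were BWA, Trim Galore, MACS2, Subread and featureCounts (no versions) and the build was GRCm38, also called mm10. The sources used here do not say how peaks were pooled over libraries or if reads were shifted for the transposase. Coordinates are those of the deposited peak names, which do not say if they start at 0. In every library 100% of values came out as whole reads within 0.0001 of a read, so the reads behind them could be recovered. Libraries held 44.8 to 98.9 M reads in peaks. Intervals and p-values do not cover duplicate PCR reads, which were not separable here.

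Group differences were tested with limma 3.58.1 in R 4.3.3 (lmFit, then eBayes with its trend option) after log2(value + 1), which understates changes of low peaks. A single model over all 9 libraries took in the 146,729 peaks averaging at least 10. It set the mean of the hairpins, and each hairpin, against NTC, and #4 against #1. A call is a Benjamini-Hochberg adjusted p under 0.05 over all peaks, and gene windows were summed and tested likewise over 19,537 protein-coding genes. Gene positions and promoter sequences came from RefSeq tables of GRCm38.p6. A start peak has its centre within 1 kb of the annotated start, or of either gene end where no strand was given.

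For each gene the text names the start peak, the peak with the highest NTC mean, and the highest and lowest fold among peaks averaging at least 50 that were called with each hairpin in the same direction. For the other gene lists it names the 3 members with the lowest p. Further peaks of a window are named as neighbours. The result of a leukocyte marker gene in the marker lists is not reported here. The members, lists and rules were chosen with earlier results of these data known.

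The fit was tested on simulated data. A chi-square on recovered reads found no 2 libraries alike within sampling noise, so none were merged and every library was kept. Same-numbered libraries did not deviate together, so no pairing was assumed. Alternatives tried were other windows, scalings, filters, pseudocounts, a stricter threshold, other tests (edgeR 4.0.16 and DESeq2 1.42.0 on recovered reads) and a replicate block, and each library was left out in turn. Centring on peaks away from gene ends and leaving out the peaks of Col5a1 were added after the data were seen. Tables were handled with pandas 2.3.3, numpy 2.4.6 and scipy 1.17.1 in Python 3.11.15 and data.table (version 1.17.8), and figures were drawn with matplotlib 3.10.9.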

Additional observations from a re-analysis of the deposited data

Results flagged for a closer look

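The hairpins had different effects under the same contrast with NTC at 17 results, by limma's direct test of shMed4 #4 against shMed4 #1 at an adjusted p under 0.05. The results looked at were the 25 named peaks and the 9 window totals. By the same test 20.4% of all peaks were higher and 21.2% lower. Of all gene windows 22.8% were higher and 32.3% lower, so such differences were common and not particular to these genes. Among window totals the log2 fold of #4 against #1 was −0.34 for Col3a1, 0.076 for Col5a1, −0.22 for Col5a2, 0.15 for Col6a1, −0.10 for Col6a2 and −0.15 for Col6a3. The loss at Col5a1 and Col6a1 was thus smaller with #4, and the gain at Col3a1, Col5a2 and Col6a3 was larger with #1. The surrounding 10 Mb had #4 against #1 medians of 0.10 for Col5a1, −0.15 for Col3a1 and Col5a2, and −0.08 for Col6a3. At Col5a1 the difference was thus no larger than that of its surroundings. The Col6a1 loss rested on the shared peak 41.4 kb before Col6a2. Without that peak the Col6a1 log2 folds against NTC were 0.03 with #1 and 0.09 with #4.

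Among single peaks the widest gaps were at Col6a2 and Col6a3. The #4 against #1 log2 fold was 1.25 at the peak 41.4 kb before Col6a2 and 1.08 at the peak 42.8 kb after Col6a3, both lower than NTC with each hairpin. It was −0.73 at the peak 25.3 kb before Col6a2, 0.35 at the Col6a2 start peak, −0.23 at the peak 1.46 kb before Col6a2 and 0.34 at the Col6a1 start peak. It was 0.15 at the Col1a1 gene-end peak, −0.45 at the peak 5.15 kb beyond Col1a1, and −0.45 at the peak 6.43 kb after Col3a1. The remaining 2 were 0.22 at the peak 27.6 kb before Col5a1 and −0.47 at the strongest rise in the Col5a2 body.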

How the results depend on the processing

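With peaks in gene bodies alone, 16 were called higher and 45 lower over both hairpins, 21 and 46 with shMed4 #1, 13 and 43 with shMed4 #4, and 30 and 19 for #4 against #1. Within 10 kb 20 were higher over both hairpins, 25 with #1 and 19 with #4, and 27 were lower for #4 against #1. Within 100 kb 62 were higher over both and 58 with #4. Without the peaks of Col5a1 the lower counts were 23 over both, 26 with #1 and 27 with #4, and 24 were higher for #4 against #1. These settings change which peaks are counted. Centred on gene-end peaks, 51 were higher with #4 and 1 window was lower. The lower windows were 1 with bodies alone and 2 within 10 kb.

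Leaving out each library in turn gave 31 to 42 higher and 71 to 77 lower over both hairpins, 36 to 48 and 69 to 78 with #1, 28 to 33 and 61 to 75 with #4, 47 to 53 and 34 to 44 for #4 against #1, and 3 to 4 windows higher and 4 lower. By edgeR 42 peaks were higher and 75 lower over both hairpins, and by DESeq2 36 and 72. With the replicate block, in which the replicate number is a term, 40 were higher and 74 lower. With the mean of its group taken off at each peak, same-numbered libraries correlated at −0.01 to 0.07, so the numbers do not pair them.

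Some folds turned sign. The Col1a1 gene-end peak stood at −0.0037 with equal totals, −0.010 centred away from gene ends, −0.011 without shMed4 #4 replicate 3 and −0.031 to 0.059 as each library was left out, lowest without NTC replicate 1. The Col1a2 peak at 17.1 kb stood at −0.0039 centred away from gene ends and at −0.14 with the 10 Mb median subtracted, where the Col5a1 start peak stood at 0.0010. Centred on gene-end peaks, the strongest peak of the Col5a3 window stood at 0.058 and the Col6a2 total at 0.0058. The Col5a3 total was −0.0071 with equal totals, −0.085 for the body, −0.012 within 100 kb and −0.0039 (without NTC replicate 1) to 0.026 as each library was left out. The Col6a1 total was 0.10 within 10 kb, and that of Col6a2 0.28 for the body and 0.47 within 10 kb. Apart from the windows and the peaks counted, the cause was not tested. Depth limits what can be said of weak peaks, such as those of Col3a1.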
